A study of Mus musculus with 36 samples.

Results

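The olfactory receptor genes of mouse chromosome 7 were described by their replication timing (RT), that is, by whether the DNA at their start was copied early or late in S phase. The genes were chosen by name and place, as protein-coding genes of the mm9 annotation whose symbol begins with Olfr and whose start lies on chromosome 7. This gave 240 of 22350 protein-coding genes with a state in all maps. RT was taken from 3 deposited domain maps, each of which cuts the chromosomes into domains from the ratio of early to late S phase reads in 20 kb bins. A domain has 1 of 3 states, E for early, M for middle or L for late. The first map came from CH12 shLacZ cells. CH12 is a mouse B cell lymphoma line with intact Rif1, here carrying a lentiviral short hairpin RNA against LacZ as the infection control. The second came from WT primary B cells, which are activated splenic B cells of Rif1+/+ mice. Each B cell map merged 4 libraries, made of 2 replicates of an early and of a late S phase fraction after 2 h of BrdU labelling. The labels give stimulation with IL4, CD40 and TGF beta in RPMI medium for all B cell samples, in a sentence that speaks of CH12 cells. The third map, named MEF WT for mouse embryonic fibroblasts, is tied to no sample by the labels. The other 5 groups of the 36 libraries, which carry a loss of Rif1, a hairpin against Mcm6 or both, have no domain map used here.

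Olfactory receptors are G protein-coupled receptors of the sensory neurons in the nose. Their genes are small, usually carry the coding sequence in a single exon, and lie in dense clusters of similar copies. Each sensory neuron transcribes a single allele of a single receptor gene and holds the others in silent chromatin, and the family is largely silent in tissues other than the nose. The class I receptors, which resemble those of fish, form a single cluster on mouse chromosome 7 that surrounds the beta-globin genes, while class II receptors are spread over many chromosomes. Gene-poor, AT-rich and silent chromatin is generally copied late in S phase.

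Each condition has 1 map, in which replicates were merged before states were called, and the maps hold no RT value. A difference between maps therefore has no replicate error and no test, and the sequencing depth behind a state is unknown. Wilson 95% intervals below cover counting over genes only, and neighbouring genes share a domain and are not independent. The files number the states without naming them. In each map the states taken as E and L touched in 0 places, and the density of other protein-coding gene starts fell from 18.8 to 8.04 and 3.16 per Mb in E, M and L of CH12 cells, from 17.4 to 7.24 and 2.3 in primary B cells, and from 16.1 to 6.14 and 2.41 in MEFs.

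The receptor genes fell into 7 clusters when neighbours at most 1 Mb apart were joined. In order along chromosome 7 (mm9, positions of gene starts), the first was Olfr1344 to Olfr1350, with 8 genes at chr7:6392547-6522704. The pair Olfr291 and Olfr290 followed at chr7:92002083-92064291, and 15 genes from Olfr310 to Olfr292 lay at chr7:93418321-93836850. The pair Olfr520 and Olfr521 stood at chr7:106883655-106915674. The largest cluster ran from Olfr543 to Olfr692, with 129 genes over 2890 kb at chr7:109626416-112516744, and it is the one that holds the beta-globin genes. The next ran from Olfr693 to Olfr519, with 65 genes over 2216 kb at chr7:113821999-116037934. The last, Olfr522 to Olfr541, held 19 genes at chr7:147348913-147890064.

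The sequences before the middle gene of each of the 4 largest clusters are shown because these genes stand for clusters with different mixes of states. Each is a RefSeq window on GRCm38.p6, another build than the maps, of 250 bases before and 50 after the annotated start, written 5′ to 3′ on the strand of the gene. Capitals mark a TAATTA match. Olfr622 (chr7:103640089-103640388, minus strand) of the largest cluster and Olfr477 (chr7:107990117-107990416, plus strand) were L in CH12 cells, M in primary B cells and L in MEFs. Olfr533 (chr7:140465953-140466252, plus strand) was M in all 3 maps. Olfr301 (chr7:86403599-86403898, plus strand) was L in all 3 maps.
Olfr622: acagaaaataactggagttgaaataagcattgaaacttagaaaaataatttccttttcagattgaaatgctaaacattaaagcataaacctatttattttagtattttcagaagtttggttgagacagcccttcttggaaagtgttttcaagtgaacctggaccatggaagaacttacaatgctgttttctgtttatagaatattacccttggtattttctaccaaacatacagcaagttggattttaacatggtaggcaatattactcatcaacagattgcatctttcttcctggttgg
Olfr477: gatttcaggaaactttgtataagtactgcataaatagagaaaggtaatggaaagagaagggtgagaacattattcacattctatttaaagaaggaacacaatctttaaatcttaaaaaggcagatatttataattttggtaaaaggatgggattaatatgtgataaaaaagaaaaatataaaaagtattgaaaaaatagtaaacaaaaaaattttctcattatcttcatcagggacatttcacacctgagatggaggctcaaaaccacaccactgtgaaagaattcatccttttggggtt
Olfr533: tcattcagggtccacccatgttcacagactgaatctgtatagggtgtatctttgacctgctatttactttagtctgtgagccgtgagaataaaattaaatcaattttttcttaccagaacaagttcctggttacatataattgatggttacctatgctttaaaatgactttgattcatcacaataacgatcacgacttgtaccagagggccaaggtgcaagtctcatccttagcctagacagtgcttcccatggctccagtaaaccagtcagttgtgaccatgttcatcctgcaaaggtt
Olfr301: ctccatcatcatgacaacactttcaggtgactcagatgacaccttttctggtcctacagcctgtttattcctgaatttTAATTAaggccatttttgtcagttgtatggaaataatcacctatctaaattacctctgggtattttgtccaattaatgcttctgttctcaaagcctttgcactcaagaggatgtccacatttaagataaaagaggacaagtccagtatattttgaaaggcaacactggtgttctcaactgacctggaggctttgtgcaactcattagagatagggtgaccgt
All 4 windows are rich in A and T. Of 240 receptor genes, 203 had such a window, with a median GC content of 37.3%, against 52.7% over the windows of 27025 genes. TAATTA, the core letters bound by LHX2-type homeodomain factors, occurred in 28 of the 203 windows, 13.8%, against 5.31% of all. CCCNNGGG, the letters bound by EBF-type factors, occurred in 9, 4.43%, against 13.4% of all. Both motifs read the same on either strand and cannot share a base. The annotated start fell on an ATG in 154 of the 203 windows, 75.9%, against 6.75% of all, and it did so for Olfr622, Olfr477 and Olfr533 but not for Olfr301. For most of these genes the window may therefore sit at a start codon and need not hold the transcription start. The differences in base composition and in the kind of start move with the motif shares, and their part in them was not tested.

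Most receptor genes of chromosome 7 started in an L domain in CH12 cells and in MEFs, and fewer did in primary B cells. In CH12 cells 174 of 240 were L, 72.5% (Wilson 95% interval 66.5 to 77.8), and in MEFs 166 were L, 69.2% (63.1 to 74.7). In primary B cells 97 were L, 40.4% (34.4 to 46.7), and the largest group, 129 genes or 53.8%, was M. The M group held 62 genes in CH12 cells, 25.8%, and 70 in MEFs, 29.2%. Over all 22350 protein-coding genes, 22.1% were L in CH12 cells, 12.9% in primary B cells and 11.9% in MEFs, and 27.2%, 29.1% and 29.6% were M. The 1832 other genes of chromosome 7 were close to that, at 20.4%, 13.2% and 12.2%. The 873 receptor genes of other chromosomes were L in 71.6% of cases in CH12 cells, 55% in primary B cells and 62% in MEFs.

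**Figure D1:**
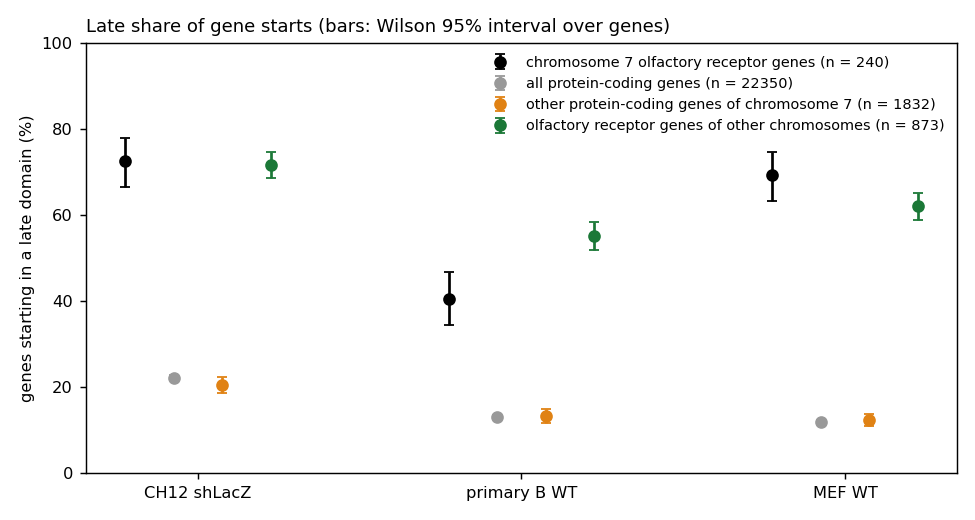
Percentage of genes that start in an L domain (y axis) in each of the 3 maps (x axis), for the receptor genes of chromosome 7 and 3 other sets; points are shares and bars Wilson 95% intervals over genes, which are not independent. Both receptor sets lie above the other genes in each map, and the chromosome 7 receptors drop from 72.5% in CH12 shLacZ to 40.4% in primary B WT.

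Few receptor genes were E in any map, while 50.6% of all protein-coding genes were E in CH12 cells, 58% in primary B cells and 58.6% in MEFs. In CH12 cells 4 receptor genes were E, 1.67%, namely Olfr520, Olfr521, Olfr522 and Olfr523. In MEFs 4 were E, again 1.67%, namely Olfr520, Olfr521, Olfr543 and Olfr544. In primary B cells 14 were E, 5.83%. These were Olfr520, Olfr521, Olfr543, Olfr544, Olfr545, Olfr646, Olfr648, Olfr649, Olfr693, Olfr694, Olfr695, Olfr697, Olfr698 and Olfr699. Only Olfr520 and Olfr521 were E in all 3 maps. They stand deep inside a long E domain, of 4420 kb in CH12 cells, 5460 kb in primary B cells and 5320 kb in MEFs, and no edge of it came nearer than 1724 kb to either gene.

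Of the 240 receptor genes, 118 had the same state in all 3 maps, 49.2%, against 62.8% of all protein-coding genes. The 83 that were L in all 3 maps made up 34.6%, against 8.12% of all genes. A further 33 were M throughout, 13.8% against 10.8%. The most frequent combination with a difference was L in CH12 cells, M in primary B cells and L in MEFs, with 51 genes, 21.2% against 2.09%. Another 23 were M in both B cell maps and L in MEFs, 9.58% against 1.15%, and 20 were L in CH12 cells alone and M in the other maps, 8.33% against 5.62%. Among the 873 receptor genes of other chromosomes, 454 were L, 140 M and 29 E in all 3 maps. Most of that set thus kept its state, and a larger share of it was L throughout than on chromosome 7. In CH12 cells, primary B cells and MEFs, 70 of them were L, M and L, 13 were M, M and L, and 71 were L, M and M.

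**Figure D2:**
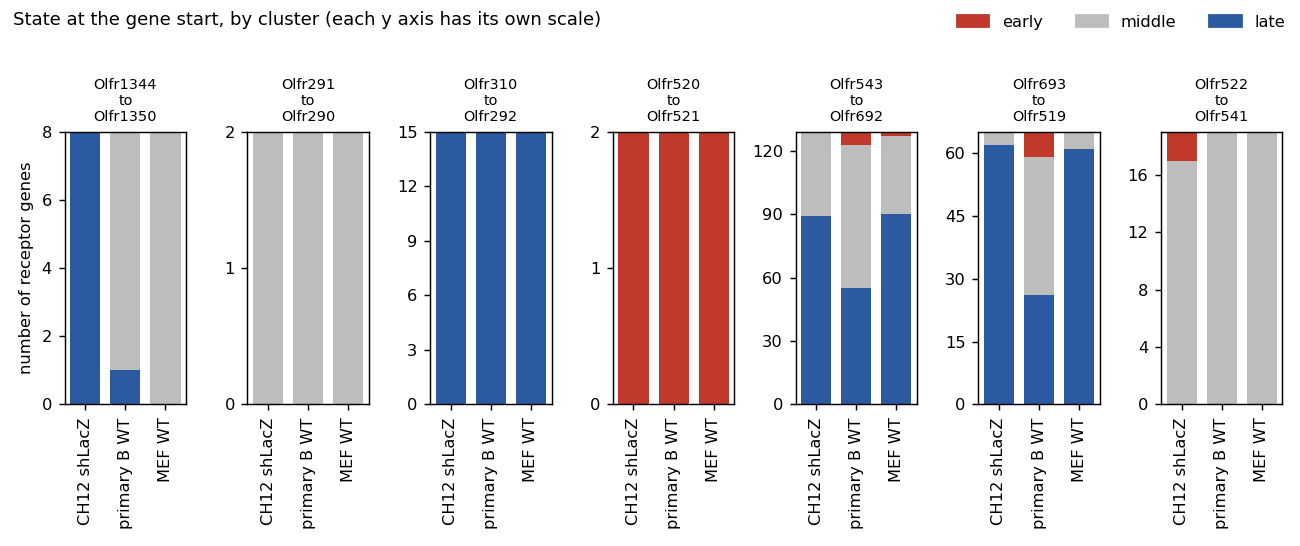
Number of receptor genes (y axis, its own scale in each panel) in E, M and L domains for each of the 7 clusters and 3 maps. Olfr310 to Olfr292 is all L and Olfr520 with Olfr521 all E, while the largest clusters lose L genes in primary B WT, from 89 to 55 of 129 and from 62 to 26 of 65.

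The clusters differed in state. The 15 genes from Olfr310 to Olfr292 were L in all 3 maps, in a single L domain of 2880 kb, 2800 kb and 2100 kb, with the flanking genes Vmn2r76, a vomeronasal receptor, and Folh1, a glutamate carboxypeptidase, also L in all 3. Its bins with a receptor gene had a median GC content of 36.1%, the lowest of the 7 clusters. Near the distal end of the chromosome, the genes from Olfr522 to Olfr541 were M in primary B cells and MEFs, all 19 of them, and 17 of 19 were M in CH12 cells. The exceptions, Olfr522 and Olfr523, started 31.1 kb and 18 kb from the edge of a CH12 E domain. The same E domain held Sprn, a prion-like protein gene 8.14 kb before Olfr522, which was M in the other maps. Cyp2e1, a cytochrome P450 gene 59.6 kb beyond Olfr541, was E in all 3 maps. Olfr291 and Olfr290 were M in all 3 maps. The 8 genes from Olfr1344 to Olfr1350 were all L in CH12 cells and all M in MEFs, and in primary B cells 7 were M while Olfr1350 was L.

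The largest cluster, around the beta-globin genes, had more domains across it than any other cluster in both B cell maps, while in MEFs it had 4, as did the Olfr693 to Olfr519 cluster. In CH12 cells it read M, L, M and L from Olfr543 onward. The first M domain held 15 receptor genes up to Olfr558, the first L domain 53 genes from Olfr33 to Olfr625-ps1, the second M domain 25 genes from Olfr243 to Olfr649, and the last L domain 36 genes from Olfr651 to Olfr692. The central M domain spanned 860 kb, at chr7:110840001-111700000. In primary B cells the cluster had 8 domains instead of 4, and 6 of its genes were E, 68 M and 55 L. In MEFs 90 of the 129 genes lay in a single L domain of 2160 kb at chr7:110040001-112200000 that covered the whole centre.

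**Figure D3:**
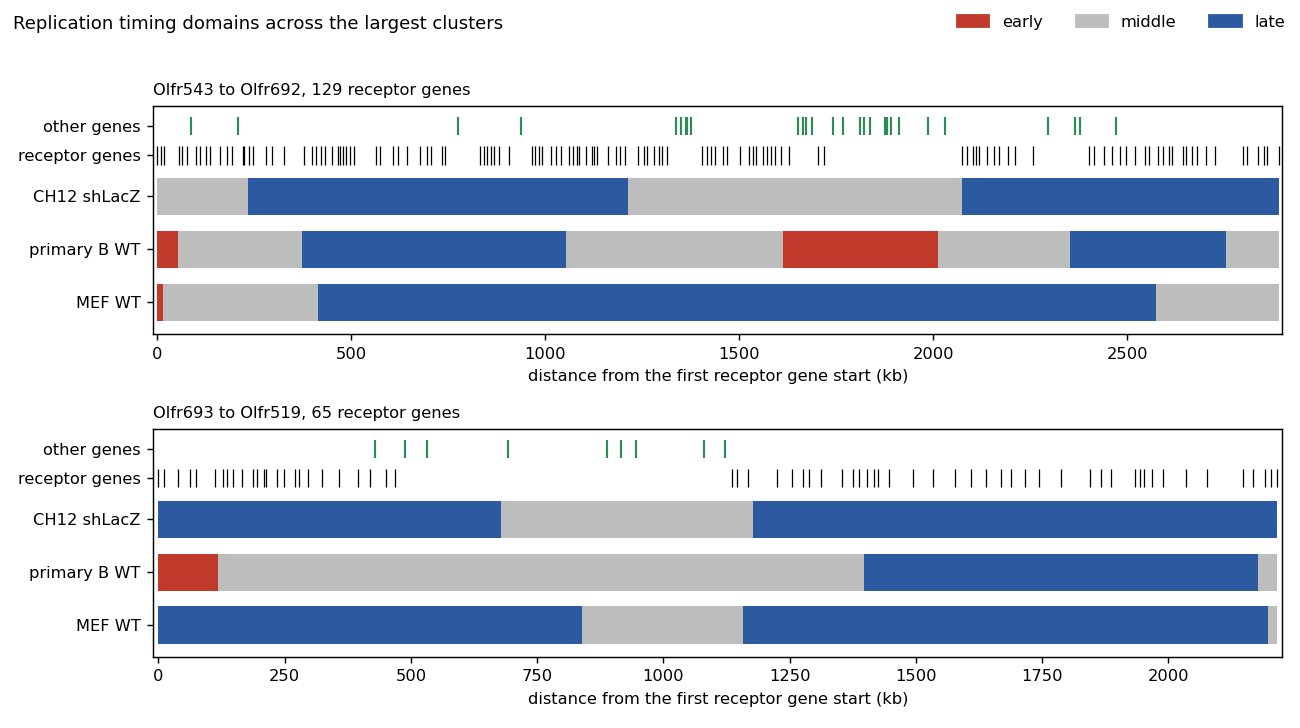
RT domains across the 2 largest clusters in the 3 maps, with distance from the first receptor gene start in kb on the x axis; black ticks are receptor gene starts, green ticks other protein-coding gene starts, and bars are coloured by state. The centre of the upper cluster is M in CH12 shLacZ, M and E in primary B WT and L in MEF WT, and the left end of the lower cluster is E in primary B WT and L in the other maps.

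The centre of this cluster holds genes other than receptors. Between Olfr543 and Olfr692, 28 protein-coding entries that are no receptors start, the first Trim21 and the last Gm5900. Trim21 codes for a cytosolic antibody receptor and was M in all 3 maps, and Gm5900 was L in all 3. The genes of the beta-globin family, Hbb-b2, Hbb-b1, Hbb-bh2, Hbb-bh1 and Hbb-y, lie at chr7:110961038-111001754. They were M in CH12 cells, M in primary B cells and L in MEFs. The receptor genes next to them, Olfr67 and Olfr66, had the same 3 states. Further on, 400 kb at chr7:111240001-111640000 were E in primary B cells, M in CH12 cells and L in MEFs. This E domain held Olfr646, Olfr648 and Olfr649 together with 14 entries that are no receptors, among them Trim5, Trim6, Trim12a and Trim30a of the tripartite motif family of antiviral and immune regulators. The Trim genes of this domain were named after their states were seen. Over the 28 entries, 0 were E, 22 M and 6 L in CH12 cells, 14 E, 9 M and 5 L in primary B cells, and 0 E, 2 M and 26 L in MEFs.

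The 3 receptor genes in that E domain were M in CH12 cells, E in primary B cells and L in MEFs. Olfr646 stood 14.8 kb from the edge of the primary B domain, Olfr648 88.9 kb and Olfr649 104 kb. All 3 stood between 356 kb and 415 kb from an edge in CH12 cells and 856 kb or more from one in MEFs. In all, 42 of 22350 protein-coding genes had this combination of M, E and L. The 3 receptor genes and the 14 other entries of this same domain are among the 42.

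At the left end of the cluster, Olfr543, Olfr544 and Olfr545 were E in primary B cells, in the end of the same 5460 kb E domain that holds Olfr520 and Olfr521. Their distances from its edge were 53.6 kb, 43.2 kb and 36.7 kb. In MEFs Olfr543 and Olfr544 were E, 13.6 kb and 3.18 kb from the edge, while Olfr545 was M at 3.29 kb beyond it. All 3 were M in CH12 cells, as was Rrm1, which codes for a subunit of ribonucleotide reductase and starts 36.2 kb before Olfr543. Rrm1 was E in the other maps. Olfr78, a receptor also known from the carotid body and kidney, was singled out for that role after its states were seen. It was L in CH12 cells, 48 kb from the edge, and M in the other maps.

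The cluster from Olfr693 to Olfr519 held the only receptor genes that were L in one B cell map and E in the other. In CH12 cells 62 of its 65 genes were L and in MEFs 61 were, and in primary B cells 6 were E, 33 M and 26 L. Olfr693, Olfr694, Olfr695, Olfr697, Olfr698 and Olfr699 were L in CH12 cells, E in primary B cells and L in MEFs. Only 20 of all 22350 protein-coding genes, 0.0895%, had this combination. These 6 are among them, as is their neighbour Gm1966. They share a single domain in each map, so they stand for a single place and not for separate cases. They lie at chr7:113821999-113934513 at the end of a primary B E domain of 1180 kb, 118 kb from its edge at Olfr693 and 5.49 kb at Olfr699. In CH12 cells the same genes stood 565 kb to 678 kb inside an L domain, and in MEFs 182 kb to 295 kb inside one. The next 19 genes, Olfr700 to Olfr716, were L, M and L in the 3 maps. Among them are Olfr2, a well-studied aldehyde receptor, and Olfr17, a receptor much used in work on axon guidance, both picked for that role after their states were seen. The 26 genes from Olfr481 to Olfr516 were L in all 3 maps.

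In the middle of this cluster 9 genes that are no receptors start, from Gm10081 to Ovch2, an ovochymase gene. Near Ovch2 the genes Olfr467 and Olfr469 were M in all 3 maps. Olfr470 was M in the B cell maps and L in MEFs, 9.24 kb from the edge. Ovch2 itself was M in all 3 maps and Gm10081 was L, M and L. Just outside the cluster, Gm1966, 74.5 kb before Olfr693, was L, E and L, and Nlrp10, an inflammasome-related gene 35.7 kb past Olfr519, was L, M and M. Gm5901, 6.87 kb past Olfr692, was also L, M and M.

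Between the B cell maps, 83 receptor genes, 34.6% (28.9 to 40.8), took an earlier state in primary B cells than in CH12 cells, and 2 genes, Olfr522 and Olfr523, were in a later one. Over all protein-coding genes, 18.8% were earlier and 2.75% later. By the paper's account, early domains were relatively scarcer in WT primary B cells than in the CH12 control, and mid-replicating ones more common. The maps gave 2101 E bins of chromosome 7 in primary B cells and 1781 in CH12 cells, the other way round. These are counts of called states on 1 chromosome, while the paper's account refers to profiles of RT values over the genome, so the 2 are not alike. The M bins were 2443 and 1887. States were called in each map separately, and the RT values that separate them may differ. The part of this in the shift was not tested. Of the 83 genes, 71 went from L to M, 6 from M to E and 6 from L to E. The step from L to E was 2.5% of the receptor genes, against 0.595% of all genes. Receptor genes of other chromosomes were earlier in 189 of 873 cases, 21.6%.

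The starting state has to be read beside these shares, because an E gene cannot become earlier and most receptor genes were L in CH12 cells. Among the 174 receptor genes L in CH12 cells, 71 were M in primary B cells, 40.8%, and 6 were E, 3.45%. Among all 4950 protein-coding genes L in CH12 cells, 41.2% were M and 2.69% E. The shares given an L start were thus near those of all genes, but not near those of other receptor genes. Of the 625 receptor genes of other chromosomes L in CH12 cells, 0 were E in primary B cells. Those M in primary B cells were 4, 71 and 70 by E, M and L state in MEFs, and 454 were L in all 3 maps. A smaller share of them than of the chromosome 7 receptor genes was therefore earlier in primary B cells. Among the 62 receptor genes M in CH12 cells, 6 were E in primary B cells, 9.68%, against 33.2% of all genes M in CH12 cells.

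**Figure D4:**
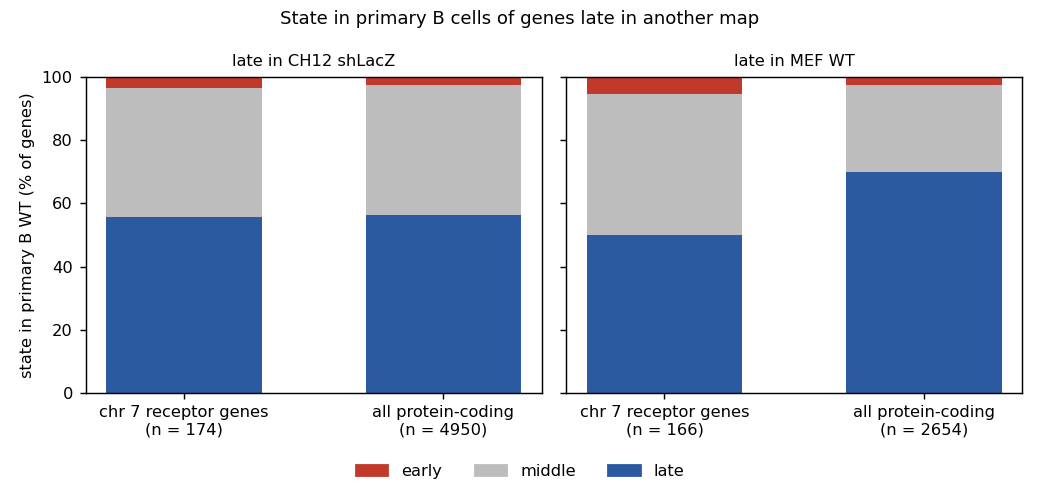
State in primary B WT (y axis, percent of genes) of genes that were L in CH12 shLacZ (left) or in MEF WT (right), for the receptor genes of chromosome 7 and for all protein-coding genes, receptors included. Of genes L in CH12 shLacZ, 55.7% of the receptors and 56.2% of all were L again, while of genes L in MEF WT the shares were 50% and 69.8%.

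The comparison with the MEF map shares the B cell maps with the comparison above. Against it, primary B cells had 84 receptor genes in an earlier state, 35%, against 11.8% of all genes. Another 14 were later, 5.83%, against 13.2%. Receptor genes of other chromosomes were earlier in 14% of cases and later in 4.81%, so the low later share was not particular to chromosome 7. CH12 cells had 28 receptor genes earlier than MEFs, 11.7% against 6.81%, and 36 later, 15% against 23.1%. There the receptor genes of other chromosomes were earlier in 3.09% of cases and later in 14.1%. A gene L in MEFs cannot be later, and 69.2% of the receptor genes but 11.9% of all genes were L there. Of the 70 receptor genes M in MEFs, 14 were L in primary B cells, 20%, against 14.1% of all 6610 genes M in MEFs. In CH12 cells 34 of the 70 were L, against 2195 of the 6610. All 26 of the CH12 M genes that were L in MEFs lay in the central M domain of the globin cluster or were Olfr470. Of the 62 genes M in CH12 cells these are 41.9%, against 5.54% of all genes M in CH12 cells. Of 166 receptor genes L in MEFs, 74 were M in primary B cells, 44.6%, and 9 were E, 5.42%. Of all genes L in MEFs, 27.7% were M and 2.52% E. Without the largest cluster, CH12 cells had 3 of 111 genes earlier than MEFs, 2.7%, and 10 later, 9.01%. Both shares were below those of all genes, 6.81% and 23.1%.

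Most stretches in which the B cell maps differed at receptor genes were short. The earlier receptor genes lay in 11 stretches of constant states, and 7 of those stretches, with 52 of the 83 genes, were shorter than the 300 kb over which the authors smoothed the ratio. The other 4 stretches held 31 genes, namely the 3 from Olfr646 to Olfr649 in 400 kb, the 6 from Olfr693 to Olfr699 in 880 kb, the 19 from Olfr700 to Olfr716 in 560 kb, and the 3 from Olfr517 to Olfr519 in 560 kb. The median distance from a receptor gene start to its domain edge was 248 kb in CH12 cells, 118 kb in primary B cells and 335 kb in MEFs. Within 100 kb of an edge lay 55, 104 and 51 genes.

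The authors kept uniquely aligned reads, and receptor genes have close copies, so the DNA was also described by the share of 50-base windows that occur once in the mm9 reference. The 188 bins with a receptor gene start had a median of 88.7% unique windows, against 95.5% in the 6869 other bins of chromosome 7, and a median GC content of 38.7%, against 42.7%. Bins with receptor genes earlier in primary B cells had 88.1% (63 bins) and those with the same state 89.1% (123 bins). The 880 kb stretch that went from L to E had a median of 65%, with 19 of its 44 bins under 50% and the lowest at 0. The bins of the 6 receptor genes in it had from 86.7% to 97.3%. Because the ratio was smoothed over 300 kb, the state of a gene also rests on neighbouring bins and not on its own bin alone. The part of read uniqueness in the states was not tested.

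**Figure D5:**
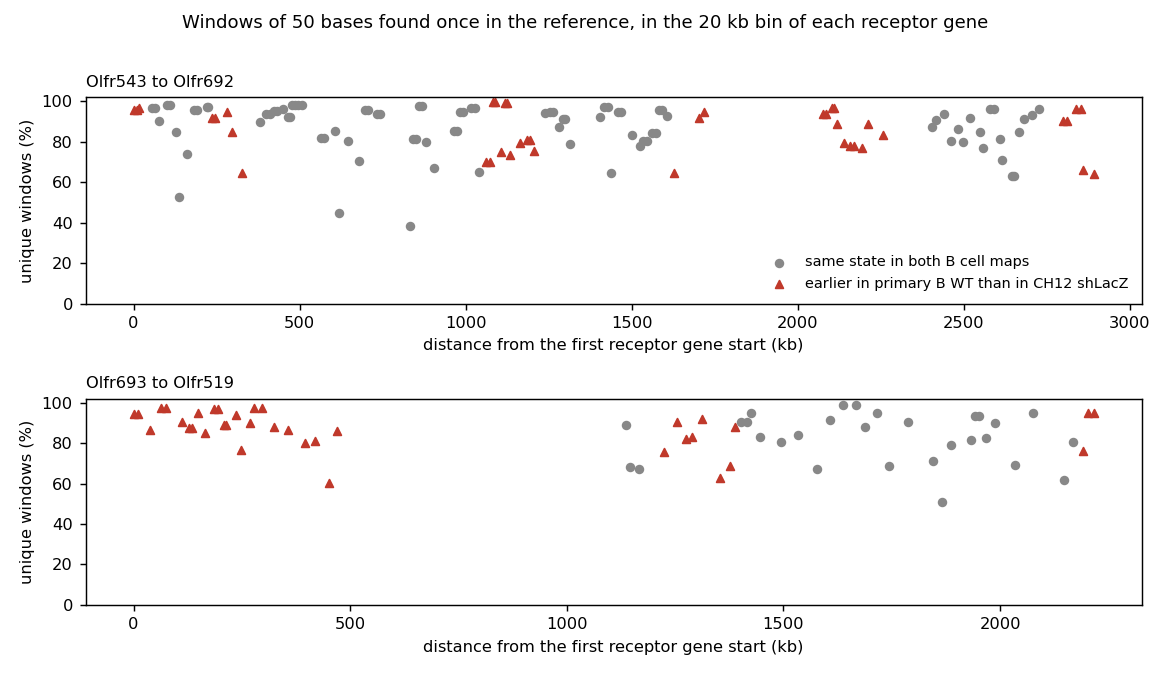
Share of unique 50-base windows (y axis, percent) in the 20 kb bin of each receptor gene of the 2 largest clusters, against distance from the first gene start in kb; triangles are genes in an earlier state in primary B WT than in CH12 shLacZ and circles genes with the same state. Over the bins of all clusters, the earlier kind ranges from 60.4% to 99.5% with a median of 88.1%, and the same kind from 38.4% to 99.3% with a median of 89.1%.

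The receptor genes themselves were short, with a median annotated length of 966 bases, and 120 lay on each strand. Their median GC content was 45.5%. It was 44.7% in the 174 genes L in CH12 cells, 48.2% in the 62 genes M and 54.6% in the 4 genes E, and in primary B cells the medians were 44.2% in L, 46.9% in M and 48.1% in E. In 239 of 240 cases the whole gene lay in 1 domain in each of the 3 maps. In 11 genes under 50% of the windows were unique.

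Other genes of olfactory signalling were taken from a list of 23 drawn up for their roles. In CH12 cells 13 were E, 5 M and 5 L, in primary B cells 15 were E, 7 M and 1 L, and in MEFs 18 were E, 3 M and 2 L, beside 50.6%, 58% and 58.6% E over all protein-coding genes. Of the transduction genes, Gng13 and Gnb1 for G protein subunits, Adcy3 for the adenylyl cyclase, Cngb1 for a subunit of the cyclic nucleotide-gated channel and Slc24a4 for an ion exchanger were E in all 3 maps. The G protein gene Gnal and the chloride channel gene Ano2 were M, M and E. The channel subunit gene Cnga2 was L, M and L, and Cnga4 was L, M and M. Cnga4 starts at chr7:112553082 just past the globin cluster, beyond Olfr692, and had the 3 states of that gene. Pde1c, for a phosphodiesterase, was the only gene of the list that was L in all 3 maps.

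Of the genes for receptor transport and folding, Reep1 and Ric8b were E throughout, Rtp1 was E, E and M, Rtp2 was L, E and E, and Stoml3, for a stomatin-like membrane protein of olfactory cilia, was L, M and E. Omp, the marker of mature olfactory neurons, was E in all 3 maps. Of the genes for receptor choice, Lhx2, Ldb1, Kdm1a and Atf5 were E throughout and Emx2 was M throughout. Ebf1, which is also a B cell factor, was M in CH12 cells and E in the other maps, and Ebf2 was M, M and E. Between the B cell maps 5 of the 23 genes, 21.7%, were earlier in primary B cells and 0 later, beside 18.8% and 2.75% of all protein-coding genes.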

How the data were processed

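Per the labels, 36 Repli-seq libraries of 7 groups were made, and groups came from the sample titles. The 8 libraries of CH12 shLacZ and WT primary B cells stand behind the B cell maps. The study's list of data sets gives MEF RT as public data. The methods call the sorted replicates technical in one place and speak of separately thawed vials in another.

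According to the methods and the submitters' processing notes, the authors trimmed reads (Trim Galore 0.6.5), aligned them to mm9 (BWA 0.7.17), kept unique alignments (SAMtools 1.9), merged replicates, removed duplicates, took log2 early over late ratios in 20 kb windows (deepTools), smoothed them by loess over 300 kb and called 3 states with a hidden Markov model. The deposited maps hold the start, end and state number of each domain, with no ratio, count or depth. Merging removes the replicate spread, and smoothing blurs edges.

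Genes came from GENCODE M1 on NCBIM37 (mm9), whose chromosome 7 length matched the last domain end of all 3 maps, and the 5′ start of a gene gave its state. Python 3.11.15, numpy 2.4.6, pandas 2.3.3, numba 0.67.0 and matplotlib 3.10.9 were used, and placement, clustering and unique windows were tested on simulated data. The receptor genes and the signalling list were chosen with earlier results of these data known. Named were the first and last gene of each cluster, each receptor gene E in a map, the first and last other gene inside a cluster with the globins, the nearest other gene beside clusters of 10 or more, and the signalling list. Alternatives were the gene middle or end, distance from edges, other gene types, bins in place of genes, leaving out the largest cluster, short domains and the cluster gap, with 2 added after seeing the data, bins with at least 90% unique windows and genes without a -ps symbol.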

Additional observations from a re-analysis of the deposited data

How the results depend on the processing

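Of 152 values recomputed under alternatives for 16 results, 118 stayed within their interval or within 1.5 times the count, and 34 moved. All 34 belong to the settings on edge distance, the largest cluster and unique windows. Some of the 118 were bound to stay. Each domain with a receptor gene was 280 kb or longer, so absorbing domains under 100 kb could change no state of these genes. In 239 receptor genes the whole gene lay in 1 domain in each of the 3 maps, so the gene middle and end could hardly differ from the start. The values under these settings therefore say little or nothing of stability. A stretch in which maps differ ends at an edge of one of them. Leaving out genes near an edge of either map therefore removes short differing stretches by construction. The counts of earlier and later genes under it say nothing of stability. The edge settings also remove every gene of a domain too short to hold a point that far from its edges. The L shares under them therefore say nothing of stability either. Over 100 kb from an edge, the L shares were 79.5% in CH12 cells, 49.3% in primary B cells and 77.2% in MEFs. In genes that far from edges in both maps compared, 19 were earlier and 0 later in primary B cells than in CH12 cells. Against MEFs, 19 were earlier and 11 later in CH12 cells, and 40 were earlier and 0 later in primary B cells. Over 300 kb from an edge, the L shares were 88.2% of 110 genes, 83.3% of 30 and 85.4% of 130, in the same order. At that distance in both maps compared, 0 genes were earlier and 0 later in primary B cells than in CH12 cells. There 11 were earlier and 0 later in CH12 cells than in MEFs, and 3 were earlier and 0 later in primary B cells than in MEFs. Fewer genes remained under these settings, 107 and 27 for the B cell maps.

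Without the largest cluster 43 of 111 genes, 38.7%, were earlier in primary B cells than in CH12 cells, 3 were earlier and 10 later in CH12 cells than in MEFs, and 35 were earlier and 1 later in primary B cells than in MEFs. In bins with at least 90% unique windows, a setting chosen after seeing the data, the L share in MEFs was 62.8%. There 43 of 129 genes, 33.3%, were earlier in primary B cells than in CH12 cells. Against MEFs, 17 were earlier and 26 later in CH12 cells, and 38 were earlier and 8 later in primary B cells. Counts fall here in part because fewer genes were counted. No paired analysis was possible because each condition is given as a single merged map. The depth of the maps is unknown, so it sets no stated limit on a state, and the RT values that separate states may differ between maps.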

Other observations

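The annotation also lists 21 receptor pseudogenes on chromosome 7, which the counts of protein-coding genes leave out. In CH12 cells 7 of them were M and 14 L, in primary B cells 2 were E, 8 M and 11 L, and in MEFs all 21 were L. Of the protein-coding receptor genes, 72.5%, 40.4% and 69.2% were L in these maps, and of all protein-coding genes 22.1%, 12.9% and 11.9%. Most of the pseudogenes start in the single MEF L domain at chr7:110040001-112200000, so they are not independent.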
